A study of Mus musculus with 80 samples.

Results

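The 9 genes described here encode the liver enzymes that build and break down glycogen and the proteins that set their activity. They are the rows of the raw gene count table whose symbol is Gys2, Ugp2, Gbe1, Pygl, Phka2, Gsk3b, Ppp1r3b, Ppp1r3c or Ppp1r3g, 9 of 78275 rows, and all 9 were among the 21187 genes with enough counts to test. The livers came from C57BL/6J mice of 8 to 12 weeks, male and female, kept on standard chow under a light/dark cycle and then moved to constant darkness. Control mice ate ad libitum throughout. Fasted mice lost access to food at circadian time 10 (CT10), so the fasted group of CT8 was still fed, and those of CT12 to CT44 had been without food for 2 to 34 h. At each of 10 times, 4 h apart, each treatment had 4 mice, 2 of each sex, which makes 80 libraries, 1 per mouse. RNA was taken from a piece of the left lobe, so every value is an average over the cells of that piece.

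In the liver cell, Ugp2 makes UDP-glucose, Gys2, the liver glycogen synthase, links its glucose into chains, and Gbe1 inserts the branches. Pygl, the liver glycogen phosphorylase, releases glucose 1-phosphate from the chain ends after phosphorylase kinase, whose liver alpha subunit is Phka2, has activated it. Gsk3b phosphorylates and inhibits glycogen synthase. Ppp1r3b, Ppp1r3c and Ppp1r3g each tether protein phosphatase 1 to glycogen, where the phosphatase activates the synthase and inactivates the phosphorylase. Most of the daily control of these proteins is by phosphorylation and allostery, which RNA levels do not show.

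Libraries held 25534901 to 59927771 gene counts. The share of counts on Rn18s-rs5, a ribosomal RNA gene, ran from 0.0577% to 31.3% and passed 1% in 7 libraries, 3 of them from CT12 to CT44. Groups were taken from the titles, with which a separate treatment tag disagreed for 40 libraries and a separate sex tag for 40. Of 10 hepatocyte markers, all tested, 6 were higher and 2 lower under fasting, and their summed level had a median of 9.19e+04 CPM (counts scaled to library size) in control and 1.03e+05 CPM in fasted livers of CT12 to CT44. Of 6 skeletal muscle markers, 5 (Ckm, Acta1, Myh4, Tnnt3 and Mb) had medians under 0.1 CPM, and the 6 summed to between 0.564 and 2.27 CPM in the fasted and between 0.854 and 2.07 CPM in the control libraries of CT12 to CT44. The 6 Kupffer cell markers summed to 188 to 654 CPM in control and 127 to 405 CPM in fasted livers, with 5 lower under fasting. The 5 cholangiocyte markers summed to 24.6 to 66 CPM and 6.78 to 50.3 CPM, with 4 lower. The 5 adipocyte markers summed to 0.0862 to 6.53 CPM and 3.85 to 281 CPM, although 4 of them (Adipoq, Cfd, Lep and Plin1) had medians under 0.1 CPM. Of the 3 adipocyte markers tested, only 1 was higher. Of 5 markers each, 2 rose and 2 fell for liver endothelial cells, and 1 rose and 3 fell for stellate cells. For erythroid cells and for leukocytes 0 rose and 2 fell. By the same call, defined below, 29.5% of all genes were higher and 32.9% lower. The part of these shifts in the results below was not tested.

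Fasting moved 8 of the 9 genes when its effect was averaged over CT12 to CT44. Gys2, Gsk3b and Ppp1r3g rose, while Ugp2, Gbe1, Pygl, Ppp1r3b and Ppp1r3c fell. The largest changes were those of the glycogen-targeting subunits, with Ppp1r3g higher by 4.64 ± 0.37 on the log2 scale (SE), and Ppp1r3b and Ppp1r3c lower by 1.33 ± 0.10 and 1.13 ± 0.16. A call here is a Benjamini-Hochberg adjusted p under 0.05 over all genes tested with edgeR's quasi-likelihood test, and fasting passed it for 62.5% of those genes, 29.5% higher and 32.9% lower. The 9 genes had a median difference of -0.25, against -0.02 over all genes. Fewer cells of a type and less RNA per cell cannot be told apart in whole liver.

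At single times, 42 of the 81 pairs of gene and time were called, against 25.6% of such pairs over all genes. The 4 fasted libraries lay wholly above or below the 4 control libraries in 34 of the 81 pairs, against 21.1% over all genes. Calls among the 9 genes numbered 2 after 2 h without food (CT12) and 2 after 6 h, beside 1.6% and 23.4% of all genes, then 8 after 10 h, 4 after 14 h and 4 after 18 h, beside 36.6%, 24.1% and 21%. They numbered 2 after 22 h (CT32), 6 after 26 h, 8 after 30 h and 6 after 34 h, beside 17.7%, 26.8%, 39.9% and 39.4%. The share of all genes called was thus also high at CT20 and CT40, the times with 8 calls, and lower at CT32. Before food removal, at CT8, no gene of the 9 was called and none had an unadjusted p under 0.05, 0 of 9, where 1.33% of all genes were called. The DESeq2 Wald test also called 0 of 9 at CT8, with 2.97% of all genes called. Rn18s-rs5 took 31.3% of counts in control CT8 female 2 and 1.67%, 2.44% and 4.88% in fasted CT8 male 1, male 2 and female 2. Without control CT8 female 2, 0 of 9 were called.

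**Figure D1:**
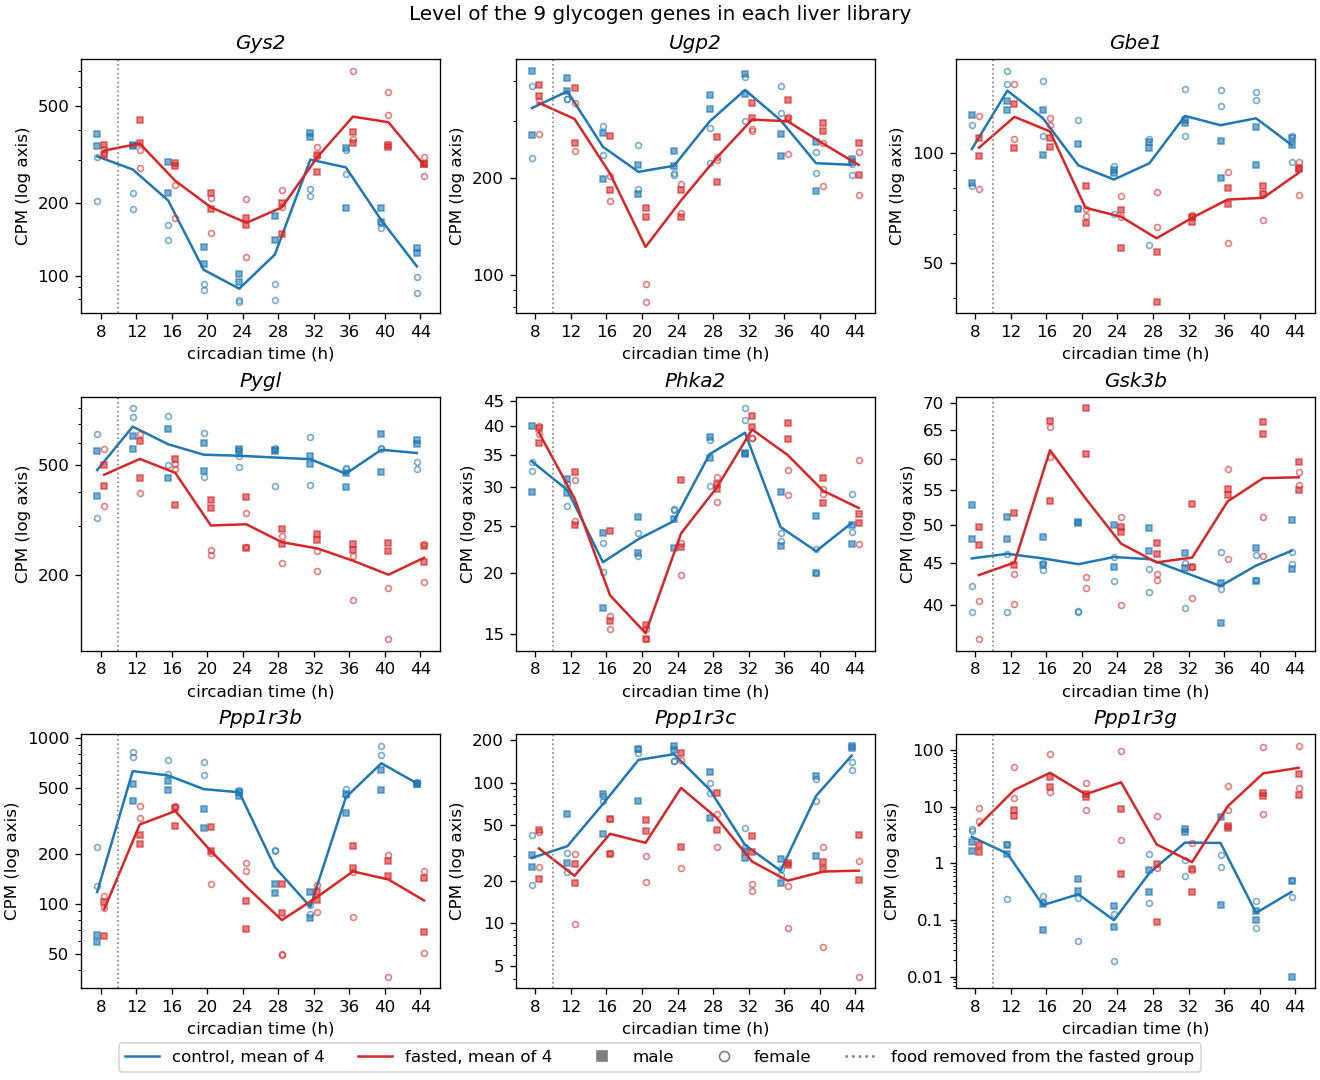
Level of each of the 9 genes in CPM (log axis) against circadian time (h), with 1 point per library, squares for males, open circles for females, and lines through the mean of 4 libraries per treatment and time; the library with 0 counts of Ppp1r3g is drawn at 0.01. From CT20 on, every fasted Pygl library lies below all control libraries of its time, while Ppp1r3g reaches a fasted mean of 48.9 CPM at CT44 against 0.316 CPM in controls.

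**Figure D2:**
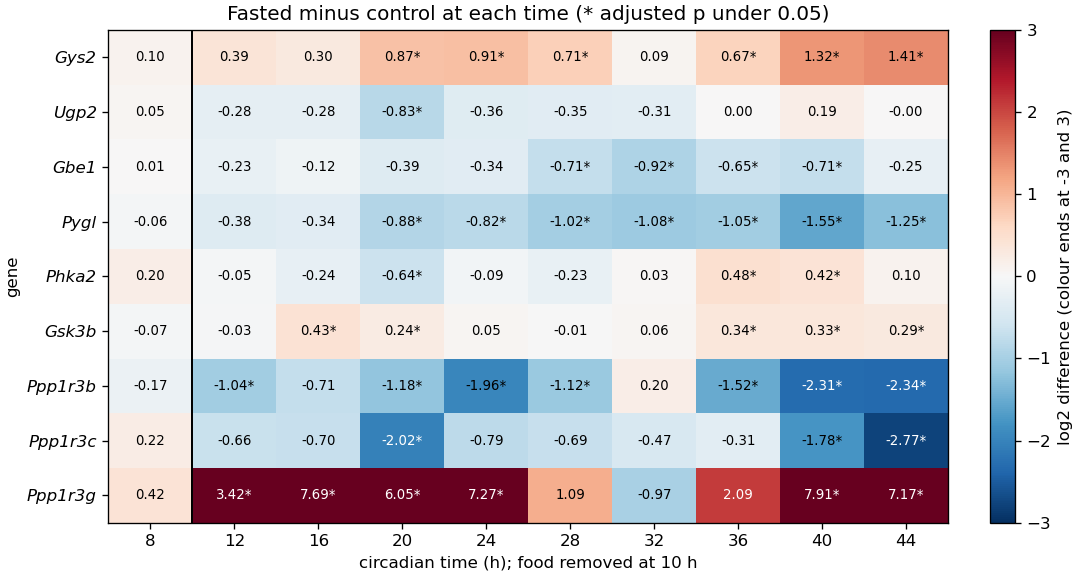
Log2 difference, fasted minus control, for each gene (rows) at each circadian time (columns, h), with asterisks for adjusted p under 0.05 and colour ending at -3 and 3. At CT32, after 22 h without food, Gys2, Ppp1r3b and Ppp1r3g show 0.09, 0.20 and -0.97, against 1.32, -2.31 and 7.91 at CT40.

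Among the enzymes of synthesis, Gys2 was higher in fasted livers at all 9 times and was called at 6 of them. Its mean difference over CT12 to CT44 was 0.74 ± 0.05 (adjusted p = 2.65e-16), from 184 ± 94.1 CPM in control to 292 ± 120 CPM in fasted livers (SD, n = 36 each). At CT44 the control males had 124 and 130 CPM and the control females 98.5 and 84.7 CPM. The fasted males had 289 and 289 CPM and the fasted females 308 and 257 CPM, so the groups did not overlap, and the difference was 1.41 ± 0.16. The calls at CT28 and CT36 were lost without male replicate 1 (adjusted p = 0.169 and 0.133). At CT32 the control males had 389 and 373 CPM, the control females 229 and 214 CPM, the fasted males 316 and 267 CPM and the fasted females 313 and 340 CPM. There the fasted livers lay between the control sexes, with a difference of 0.09 ± 0.16.

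Ugp2 and Gbe1 fell, by less. Ugp2 had a mean difference of -0.25 ± 0.06 and was called at CT20 alone, where control livers had 178, 220, 185 and 253 CPM and fasted livers had 161, 152, 82.9 and 93.8 CPM (difference -0.83 ± 0.17). All 4 fasted values lay below the control values at that time, and the fasted females were the lowest. In males alone the mean effect on Ugp2 was -0.14 (adjusted p = 0.12). Gbe1 was lower at all 9 times, with a mean difference of -0.48 ± 0.06, and was called from CT28 to CT40. At CT32 the fasted livers had 64.7, 66.7, 67.8 and 66.6 CPM, a narrow band below the control values of 121, 123, 111 and 150 CPM (difference -0.92 ± 0.18). The calls at CT28, CT36 and CT40 were each lost without 1 of the male replicates, with adjusted p up to 0.167, 0.191 and 0.069.

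Pygl, which opens breakdown, was lower in fasted livers at all 9 times. It was called at the 7 times from CT20 to CT44, and at each of these the groups did not overlap, although CT24 lost the call without male replicate 1 (adjusted p = 0.119). Its mean difference was -0.93 ± 0.06 (adjusted p = 5.67e-17), from 556 ± 94.5 to 307 ± 123 CPM (SD, n = 36 each). At CT12 the fasted livers had 612, 448, 646 and 395 CPM and the control livers 569, 636, 802 and 742 CPM, which overlap. At CT40 the fasted livers had 244, 261, 179 and 117 CPM against 472, 649, 572 and 575 CPM, a difference of -1.55 ± 0.20. The fitted straight-line change in the fasted livers from CT12 to CT44 was -1.26 on the log2 scale, beside no called daily rhythm.

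The 250 bases before the annotated start of Pygl are shown because this window, at chr12:70227684-70227933 on the minus strand of GRCm38.p6 (RefSeq), holds matches to 2 of the searched motifs. Capitals mark TGACCT, a core motif of nuclear receptors, and CGTCA, the reverse complement of TGACG, the core of the cyclic AMP response element.
Pygl: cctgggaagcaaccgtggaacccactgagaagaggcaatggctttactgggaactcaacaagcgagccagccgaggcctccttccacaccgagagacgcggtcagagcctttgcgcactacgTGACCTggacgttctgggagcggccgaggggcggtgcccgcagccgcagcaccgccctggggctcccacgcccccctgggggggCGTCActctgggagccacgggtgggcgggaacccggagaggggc
TGACCT lies 128 to 123 bases before the start and CGTCA 44 to 40 bases before it. On either strand, TGACCT is found in 14% and TGACG in 17.8% of the 32851 promoter windows of this length.

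Phka2 did not differ on average (-0.02 ± 0.04, adjusted p = 0.634), yet its difference turned over time. At CT20 the fasted livers had 14.6, 15.6, 14.6 and 15.3 CPM, below the control values of 22, 26, 21.7 and 24.1 CPM (difference -0.64 ± 0.12). At CT40 they had 27.8, 31.3, 29.1 and 29.7 CPM, above the control values of 26.2, 20, 20 and 22.4 CPM (difference 0.42 ± 0.12). The rise at CT36, 0.48 ± 0.12, was also called, with groups that overlap. The call at CT36 was lost without female replicate 2 (adjusted p = 0.0614), and that at CT40 without male replicate 2 (0.103) or female replicate 1 (0.0602). The sign of the near-zero mean was positive in males alone (0.04) and without CT20 (0.06).

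Gsk3b, the inhibitory kinase of the synthase, rose by a mean of 0.19 ± 0.03 and was called at 5 times, of which CT20, CT36 and CT44 lost the call without male replicate 1 (adjusted p = 0.238, 0.0712 and 0.166). At CT16 the fasted livers had 66.5, 53.4, 65.5 and 60.3 CPM, all above the control values of 48.3, 44.7, 45 and 44.1 CPM (difference 0.43 ± 0.08). From CT24 to CT32 its differences lay between -0.01 and 0.06 and none was called.

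Ppp1r3b, the main liver subunit that targets the phosphatase to glycogen, was called lower at 7 of 9 times. The call at CT12 was lost in 9 of the alternatives tried, that at CT20 without male replicate 2 (adjusted p = 0.0933) and that at CT28 without male replicate 1 (0.166). Its mean level was 457 ± 220 CPM in control and 177 ± 103 CPM in fasted livers (SD, n = 36 each; adjusted p = 1.69e-16). At CT40 the control livers had 481, 643, 787 and 895 CPM and the fasted livers 180, 148, 196 and 36.4 CPM, a difference of -2.31 ± 0.30. At CT32 the control livers had 118, 81.9, 98 and 86.5 CPM and the fasted livers 118, 105, 129 and 89.1 CPM, which overlap (difference 0.20 ± 0.28). The control level at that time was the lowest of its day, 96.2 ± 16.2 CPM, against 701 ± 180 CPM at CT40 (SD, n = 4 each).

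Ppp1r3c, another targeting subunit, was lower at all 9 times and was called at 3, CT20, CT40 and CT44, of which CT20 and CT40 lost the call without male replicate 2 (adjusted p = 0.0538 and 0.2) and CT40 also without female replicate 2 (0.0728). At CT44 the control livers had 177, 183, 122 and 140 CPM and the fasted livers 42.5, 20.2, 4.17 and 27.8 CPM, a difference of -2.77 ± 0.52 (adjusted p = 2.51e-05). The fasted livers of CT24 split: 34.9 and 24.9 CPM in male 1 and female 1, 163 and 144 CPM in male 2 and female 2. Control values were 142 to 182 CPM. This split followed the replicate number, and why was not tested. With that spread the difference at CT24, -0.79 ± 0.48, was not called.
The 250 bases before its start, at chr19:36736605-36736854 on the minus strand of GRCm38.p6 (RefSeq), are shown because, of the windows searched for 7 of the 9 genes, it alone holds an E-box, CACGTG, the sequence bound by the clock activators CLOCK and BMAL1. The match is in capitals, 104 to 99 bases before the start.
Ppp1r3c: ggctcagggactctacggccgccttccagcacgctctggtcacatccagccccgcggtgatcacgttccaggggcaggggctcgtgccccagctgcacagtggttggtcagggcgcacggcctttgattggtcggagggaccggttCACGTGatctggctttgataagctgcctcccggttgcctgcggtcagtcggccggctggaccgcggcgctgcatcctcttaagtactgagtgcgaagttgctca
CACGTG is found in 6.02% of all windows of this length.

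Ppp1r3g, a targeting subunit known from mouse liver as one that changes with feeding state, had the widest range of the 9 genes. Control livers held 0.87 ± 1.38 CPM and fasted livers 22.7 ± 31.7 CPM over CT12 to CT44 (SD, n = 36 each; adjusted p = 6.16e-15). At CT16, after 6 h without food, the fasted livers had 34.1, 22.4, 18.3 and 84.6 CPM, and the control livers had 0.0661, 0.193, 0.266 and 0.211 CPM, which is 2 to 13 counts per library. The groups did not overlap at any of the 6 called times (CT12 to CT24, CT40 and CT44), and the called differences ran from 3.42 to 7.91. Those sizes rest on few control counts, and at CT44 1 control library had 0 counts. At CT32 the order turned, with 0.801, 0.314, 0.759 and 2.34 CPM in fasted and 3.6, 4.02, 0.592 and 1.13 CPM in control livers, which overlap (difference -0.97 ± 1.00, adjusted p = 0.566). Single fasted mice of 1 time differed widely: at CT24 they had 9.15, 0.651, 96.1 and 2.57 CPM. Without male replicate 1 of every group the call at CT24 was lost (adjusted p = 0.0513), as it was with limma-voom (0.163), and the call at CT12 was lost in 8 of the alternatives tried.
The window before its start, at chr13:35967656-35967905 on the plus strand of GRCm38.p6 (RefSeq), holds TGACG 40 to 36 bases before the start, in capitals, and no other searched motif. It is shown because this gene changed most.
Ppp1r3g: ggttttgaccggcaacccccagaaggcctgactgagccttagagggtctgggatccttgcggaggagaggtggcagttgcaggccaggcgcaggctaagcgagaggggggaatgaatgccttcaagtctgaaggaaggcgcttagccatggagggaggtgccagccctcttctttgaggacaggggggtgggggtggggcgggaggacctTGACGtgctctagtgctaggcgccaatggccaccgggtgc
The motifs searched on both strands were the E-box CACGTG, the full cyclic AMP response element TGACGTCA with its core TGACG, which lies inside it, the forkhead motif TGTTTAC, the D-box TTATGTAA and the nuclear receptor motif TGACCT. The table gave 8 windows for 7 of the genes and none for Gys2 and Ppp1r3b. Those of Ugp2, Gbe1, Phka2 and Gsk3b held none of these letters. The full cyclic AMP element, the forkhead motif and the D-box are found in 1.55%, 3.17% and 0.819% of all windows.

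Compared per kilobase of merged exons, the control levels over CT12 to CT44 placed Ugp2 (89.2 ± 23.7), Pygl (80.6 ± 13.7), Ppp1r3b (73.5 ± 35.4) and Gys2 (69.2 ± 35.4 CPM per kb, SD, n = 36) within their spread of each other. Ppp1r3c (32.4 ± 20.6) and Gbe1 (21.1 ± 5.06) came next, then Gsk3b (4.57 ± 0.353) and Phka2 (4.5 ± 1.04 CPM per kb), whose levels overlap, and Ppp1r3g (0.323 ± 0.513). In fasted livers Gys2, at 110 ± 45.2 CPM per kb, had the highest mean, and Ppp1r3g reached 8.44 ± 11.8 beside 14.1 ± 12 CPM per kb for Ppp1r3c.

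The change of the fasting effect over time, tested jointly over the 9 times, was called for 8 of the 9 genes, all but Gbe1 (adjusted p = 0.0963), against 33.7% of all genes. Leaving out male replicate 1 or 2 of every group, which removes 20 libraries, left 3 and 2 genes called, with 7.24% and 5.29% of all genes, and females alone left 1 gene, with 9.21% of all genes. The adjusted p in the fit to all libraries was 1.04e-05 for Ppp1r3g, 3.53e-05 for Ppp1r3b, 4.08e-05 for Phka2 and 6.51e-05 for Gys2.

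In control livers 7 of the 9 genes had a called 24 h rhythm, against 41.8% of all genes. Their fitted peaks were spread around the day. Phka2 peaked at CT5.8, Ugp2 at CT8.8, Ppp1r3g at CT8.9, Gys2 at CT10.8, Gbe1 at CT12.7, Ppp1r3b at CT17.6 and Ppp1r3c at CT22.3. The waves were largest for the targeting subunits, with a peak 16.4 times the trough for Ppp1r3g, 6.51 times for Ppp1r3c and 5.45 times for Ppp1r3b, against 3.64 for Gys2 and 1.57 to 1.74 for Ugp2, Gbe1 and Phka2. Control Gys2 thus moved from a mean of 88.4 ± 11.6 CPM at CT24 to 301 ± 92.3 CPM at CT32, while Ppp1r3c moved from 159 ± 19.9 to 36.1 ± 7.83 CPM (SD, n = 4). The size of the Ppp1r3g wave rests on few counts, 1 to 7 per control library at its lowest mean, CT24 (0.0996 ± 0.0668 CPM). The rhythm of Gbe1 was not called in males alone (0.33 on the log2 scale, adjusted p = 0.22, against 0.99 in females alone). No rhythm was called for Pygl (adjusted p = 0.428) or Gsk3b (adjusted p = 0.715).

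In fasted livers, with a straight-line change over time in the model, 8 of the 9 genes had a called rhythm, all but Pygl. The share of all genes was 47.1%. Females alone gave 3, with 21.2% of all genes. The fast lengthens with circadian time, so a 24 h wave and a curved response to the fast cannot be told apart in these livers. The fitted rhythm differed between the treatments for 6 genes, Gys2, Phka2, Gsk3b, Ppp1r3b, Ppp1r3c and Ppp1r3g, against 23.2% of all genes. Ppp1r3g peaked at CT18.2 in fasted and at CT9.1 in control livers in the joint model, a wave of 5.01 against 4.02 on the log2 scale (adjusted p = 4.22e-08). Gsk3b gained a wave of 0.41 with a peak at CT17.3 (adjusted p = 0.0052). The waves of Ppp1r3b, Ppp1r3c and Gys2 were smaller in fasted livers, 1.40 against 2.23, 1.64 against 2.65 and 1.28 against 1.80. Without male replicate 1 or 2 of every group 3 and 1 of the 9 genes kept a called difference, with 16.3% and 12% of all genes. The difference of Ppp1r3g was called in each fit that left out a replicate (highest adjusted p = 0.00019), and that of each of the other genes was lost in at least 1 of them.

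**Figure D3:**
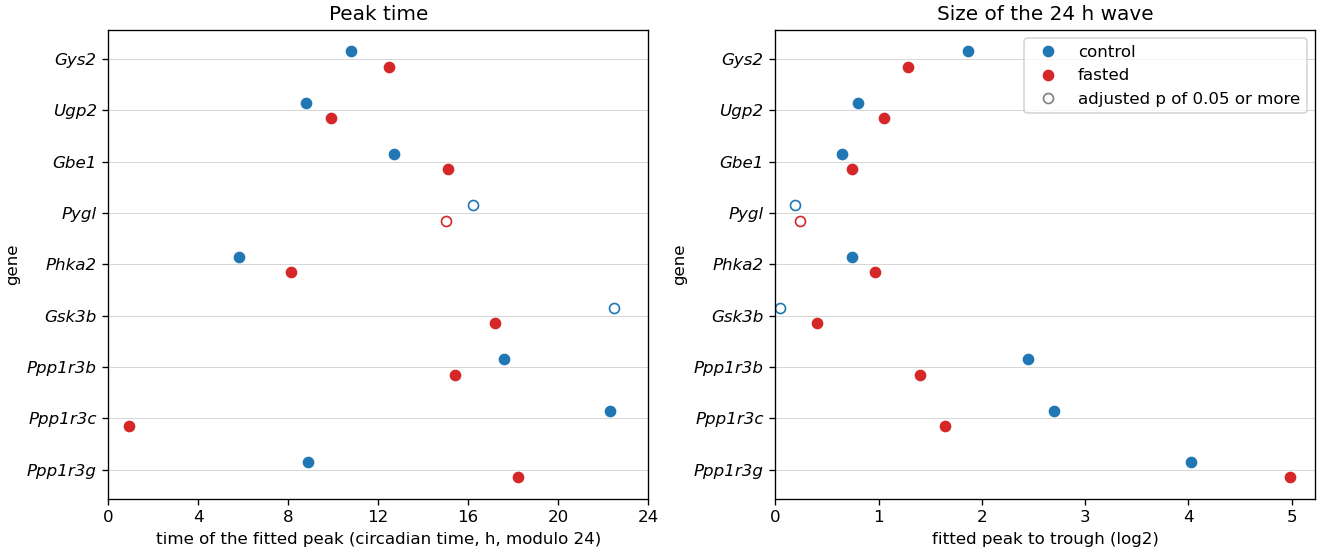
Time of the fitted 24 h peak (left, circadian hours modulo 24) and fitted peak to trough on the log2 scale (right) for each gene in control and fasted livers, with open circles where the rhythm was not called. Ppp1r3g sits at 8.9 h in control and 18.2 h in fasted livers, and Pygl has open circles in both.

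The fasting effect differed between the sexes for Gys2 and Ppp1r3b, 2 of 9 genes, against 12.4% of all genes. Gys2 rose by 1.01 in females alone and by 0.48 in males alone, a difference of 0.53 ± 0.11 (adjusted p = 0.000828). The lowest, median and highest of the 18 control males were 94.6, 183 and 389 CPM, and those of the 18 control females 78.2, 149 and 330 CPM. In fasted livers the values were 148, 289 and 441 CPM in males and 119, 268 and 702 CPM in females, so the medians of the sexes were closer there and the highest values further apart. Ppp1r3b fell by 1.60 in females alone and by 1.06 in males alone, a difference of -0.55 ± 0.19 (adjusted p = 0.0477). Ppp1r3g went from 0.56 ± 0.613 to 33.8 ± 41 CPM in females and from 1.18 ± 1.83 to 11.7 ± 11.3 CPM in males (SD, n = 18 each), a difference of 2.24 ± 0.86 on the log2 scale that was not called (adjusted p = 0.0758, edgeR). Without male replicate 2 of every group no gene of the 9 was called, with an adjusted p of 0.123 for Gys2 and 1.61% of all genes called. Without male replicate 1, 1 gene was called, with 1.05% of all genes. Without the 3 libraries of CT12 to CT44 rich in ribosomal RNA 1 gene was called. For 3 fasted CT40 libraries the gene and exon columns disagree on sex or replicate number, and which is right is not known. The fits by sex used the gene columns, where fasted CT40 Gys2 was 339 and 347 CPM in males and 459 and 574 CPM in females. The effect of the other labels on these results was not tested. In control livers, females differed from males in 3 of the 9 genes, against 39.2% of all genes, with Gys2 lower by 0.49 ± 0.07, Gsk3b lower by 0.12 ± 0.03 and Ppp1r3b higher by 0.51 ± 0.13 in females.

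The exon table, which splits each gene into bins along its annotated exons, called changed exon usage under fasting for Pygl, Ppp1r3b and Phka2, 3 of 9 genes, against 14.3% of 13889 genes. Bin positions here are those of GENCODE M21 on GRCm38, an earlier build than the GRCm39 of the files, used because it gives the same number of bins for these 3 genes. In Pygl 1 of 30 bins was called. Bin 30 is the first exon of the transcript Pygl-202, chr12:70230971-70231488 on the minus strand, 518 bases long and without coding sequence, whereas Pygl-201 starts downstream of it in chr12:70227341-70227683, with 243 coding bases in that exon. The runs of 30 bases across the join to the shared next exon (capitals) show how the transcripts differ.
Pygl-201: gacaagtgtcccaagAGGGTGTATTACCTC
Pygl-202: tgtggtggtataaagAGGGTGTATTACCTC
Bin 30 took 0.127 ± 0.0667% of the Pygl bin counts in control and 0.0311 ± 0.0365% in fasted livers (SD, n = 36 each), a change of -1.84 relative to the gene (adjusted p = 3.1e-50). At CT44 it held 47 to 116 counts in control and 0 to 1 counts in fasted libraries, and at CT40 22 to 114 and 0 to 2 counts. Bin 28, in the first exon of Pygl-201, kept 6.39 ± 0.326% and 6.44 ± 0.35% of the counts. Bin 30 lies in an intron of F730035M05Rik on the other strand, which had 14 counts at most in any library.

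**Figure D4:**
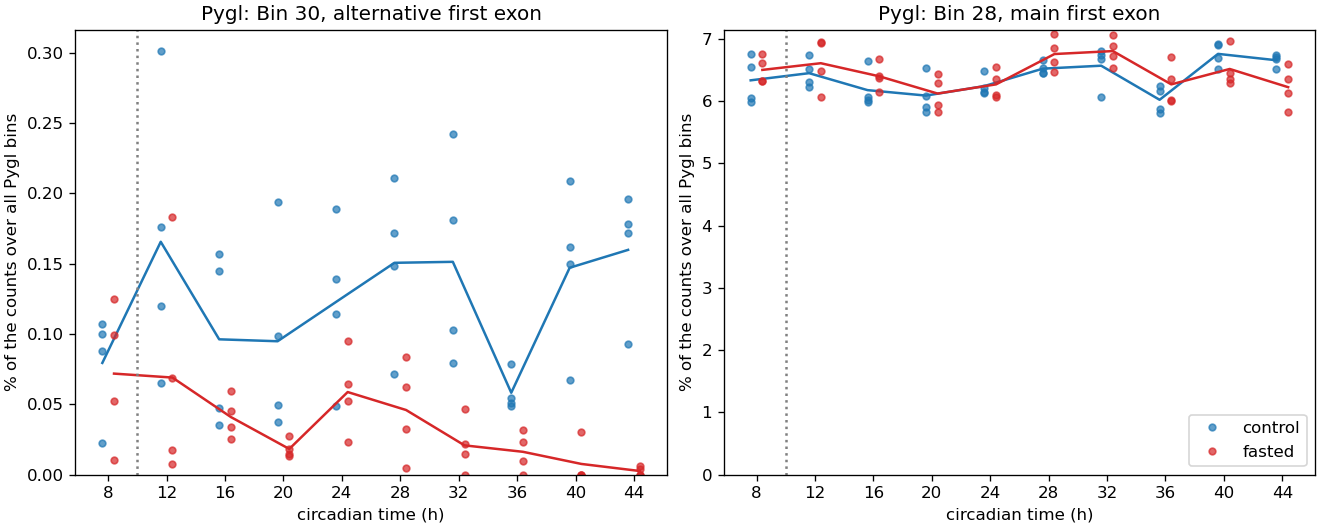
Share of all Pygl bin counts (%) taken by bin 30 (left) and bin 28 (right) in each library against circadian time (h), with lines through the mean of 4 libraries. Bin 30 falls to a mean of 0.0026% in fasted livers at CT44 against 0.16% in control, and bin 28 lies between 5.81 and 7.08% in every library of CT12 to CT44.

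In Ppp1r3b the bin with the coding sequence took 91.2 ± 1.23% of counts in control and 92.6 ± 0.967% in fasted livers. Bin 4, which belongs to the transcript Ppp1r3b-202 alone, at chr8:35375806-35375941, fell from 2.44 ± 0.528% to 1.54 ± 0.519% (-0.45 relative to the gene, adjusted p = 1.16e-08), bins 5 and 7 fell by 0.46 and 0.28, and bin 6 rose by 0.24. Gm45469 overlaps Ppp1r3b on the other strand and had 1 to 55 counts per library. In Phka2 bin 13, within a transcript annotated as a retained intron, rose by 0.31, from 1.11 ± 0.549% to 1.47 ± 0.658% of counts. The Phka2 call was lost without male replicate 1, male replicate 2 or female replicate 1.

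Other genes of the pathway were counted in 5 lists that were chosen with earlier results of these data known, to be read beside the 62.5% of all genes called for the mean fasting effect, 29.5% higher and 32.9% lower. Of 7 other genes of glycogen synthesis 2 rose and 3 fell, with a median difference of -0.09. Pgm2 rose by 0.24 ± 0.06, and Pgm1, which interconverts glucose 1- and 6-phosphate, by 0.18 ± 0.03. Nhlrc1 and Epm2a, the Lafora disease proteins malin and laforin, fell by 0.51 ± 0.09 and 0.27 ± 0.05. Gys1, the muscle synthase, and Gyg1, the glycogenin primer, had values of -0.09 ± 0.06 and -0.06 ± 0.07. Of 9 other genes of breakdown 2 rose and 4 fell, with a median of -0.14. Gaa, the lysosomal glucosidase, rose by 0.65 ± 0.05 and was called at 7 times, and Phkg2, the liver catalytic subunit of phosphorylase kinase, rose by 0.13 ± 0.03. Pygb, the brain phosphorylase, fell by 0.59 ± 0.07 and Phka1, the muscle alpha subunit of phosphorylase kinase, by 0.21 ± 0.04.

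Of 9 other protein phosphatase 1 genes 7 were tested, of which 4 rose and 2 fell, with a median of 0.18. The catalytic subunit Ppp1cc rose by 0.42 ± 0.02 and the targeting subunit Ppp1r3f by 0.25 ± 0.11, while Ppp1r3e fell by 0.31 ± 0.06 and the catalytic subunit Ppp1ca by 0.12 ± 0.03. The call of Ppp1r3f was lost in each fit that left out 1 replicate (adjusted p = 0.0685 to 0.312). All 13 genes of kinase and hormone input were called (62.5% of all genes were), 6 higher and 7 lower, with a median of -0.09. Gsk3a, the other glycogen synthase kinase 3, rose by 0.47 ± 0.02 and Insr, the insulin receptor, by 0.39 ± 0.03. Adra1b, the alpha-1B adrenergic receptor, fell by 1.51 ± 0.12, from 85 ± 17.5 to 34 ± 19.5 CPM, and Calm3, a calmodulin, by 0.59 ± 0.03. Of 9 genes of glucose and glucose 6-phosphate 2 rose and 7 fell, with a median of -0.51. G6pc1 and Slc37a4, the catalytic subunit and transporter of glucose 6-phosphatase, rose by 0.89 ± 0.10 and 0.86 ± 0.07. Mlxipl, which encodes ChREBP, fell by 1.22 ± 0.06, from 521 ± 92.6 to 233 ± 85 CPM, and Hk3, a hexokinase, by 0.84 ± 0.07.

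**Figure D5:**
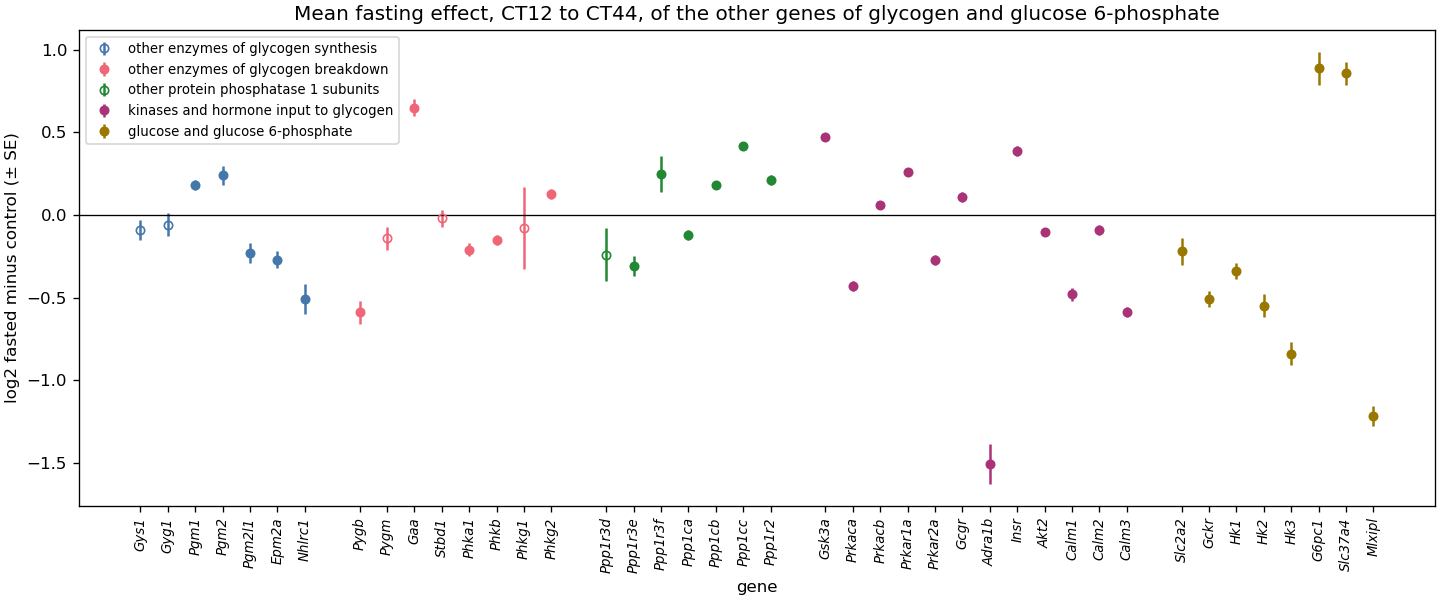
Log2 difference, fasted minus control, averaged over CT12 to CT44 (± SE), for other tested genes of the pathway that are reported here, grouped by list, with open circles where the difference was not called. Of the genes plotted, Adra1b at -1.51 and Mlxipl at -1.22 lie lowest, and G6pc1 at 0.89 highest.

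Across the 20 means of treatment and time, the genes most like each member in log2 CPM by Pearson's r, chosen over all tested genes, were Ciart (0.939), Enpp1 (0.925) and Pfdn2 (0.922) for Gys2, Slc2a9 (0.968) and Hoga1 (0.948) for Ugp2, and Pdk1 (0.958), Srbd1 (0.938) and Sord (0.930) for Gbe1. Pygl had Cyb5r3 (0.979), Echdc1 (0.976) and Taldo1 (0.975), Phka2 had E130307A14Rik (0.944), Tm4sf1 (0.935) and Nsmce1 (0.928), and Gsk3b had Gm33646 (0.924), Mef2d (0.913) and A530017D24Rik (0.909). Ppp1r3b had Mmaa (0.927), Gm16121 (0.923) and Higd1a (0.903), Ppp1r3c had Top3b (0.957), Srgap3 (0.949) and Gm61399 (0.948), and Ppp1r3g had Rb1cc1 (0.958), Ube2b (0.950) and Cdc40 (0.947). Within the 9 genes the strongest relation was inverse, -0.95 between Gys2 and Ppp1r3c, and the next was 0.82 between Ugp2 and Phka2. These values describe means from the same libraries and carry no test.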

How the data were processed

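Livers were profiled by poly(A)-selected, dUTP-stranded, paired-end RNA sequencing. The authors deposited raw counts per gene and per exon bin. Their processing notes name Trimmomatic, HISAT2, DESeq2 and build GRCm39; the counting program and its strand setting are not given in the sources used here. Groups came from the titles. From the deposited counts, edgeR 4.0.16 (filterByExpr, TMM, quasi-likelihood F test; R 4.3.3) was fitted to 40 groups of treatment, time and sex. Rhythms were cosine waves of 24 h with sex as a term, in fasted livers with a linear change over time. Exon usage was tested with diffSpliceDGE, Simes-adjusted per gene, without sex in the fasted CT40 group because 3 of 80 exon columns, all from fasted CT40, matched another library of that group best. Gene-level fits kept the sex and replicate number of the gene columns for that group. Adjustment was Benjamini-Hochberg over all features. SE is the absolute difference divided by the square root of F. CPM were computed with TMM-scaled library sizes, and log2 CPM a prior count of 2. Mean ± SD is over mice, and no interval covers more than the spread between them. Alternatives used limma 3.58.1 and DESeq2 1.42.0. Per-kilobase lengths are from GENCODE M21 (GRCm38).

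Members and lists were chosen with earlier results of these data known. Named were all 9 members, the 2 largest called rises and falls of each list with others of note, the 3 genes nearest to each member, and Rn18s-rs5. Some genes that this rule names are not reported here, so the named genes of a list are not always its largest changes. Counts and medians of a list include them. A file of normalised values was not used. The tests were checked on counts simulated for independent mice. For the mean effect, 200 of 200 changed genes were recovered and 36 of 19248 unchanged genes were called. For exon usage these were 175 of 200 and 8 of 2800. Fewer genes were changed than were called in the real data, and deviations shared by mice were not simulated. The check does not cover those settings.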

Additional observations from a re-analysis of the deposited data

Results flagged for a closer look

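In 9 of 180 groups of 4 libraries (9 genes, 20 groups), 1 library stood apart from the other 3 by Dixon's criterion on log2 CPM, which is the number that 1 in 20 gives by chance. The gap divided by the range was 0.845 for Gys2 in the fasted CT36 female 2 (702 CPM, others 352 to 391), 0.862 and 0.913 for Gbe1 in the control females 2 of CT24 and CT28 (68 and 56 CPM), 0.925 for Pygl in that same CT28 library (420 CPM, others 562 to 576), 0.870 for Phka2 and 0.891 for Ppp1r3b in the fasted CT16 male 2 (24.4 and 296 CPM), 0.834 for Ppp1r3b in the fasted CT40 female 2 (36.4 CPM, others 148 to 196), and 0.835 and 0.915 for Ppp1r3c in the control males 1 of CT16 and CT20 (43.3 and 73.8 CPM).

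The fasting effect differed between the sexes for Gys2 (adjusted p = 0.000828) and Ppp1r3b (0.0477). It differed among the times for Ppp1r3g (adjusted p = 1.04e-05), Ppp1r3b (3.53e-05), Phka2 (4.08e-05), Gys2 (6.51e-05), Gsk3b (0.00164), Pygl (0.00685), Ugp2 (0.0264) and Ppp1r3c (0.0317). The fitted 24 h rhythm differed between the treatments for Ppp1r3g (adjusted p = 4.22e-08), Gys2 (0.00329), Gsk3b (0.0052), Phka2 (0.00908), Ppp1r3c (0.0147) and Ppp1r3b (0.0327).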

How the results depend on the processing

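Counts of called genes stayed within 1.5 times in 106 of 120 alternatives, across scaling, filter, tool, sex, time and replicate choices, leaving aside the CT8 difference, whose count was 0 throughout. The exceptions, as genes called of 9 beside the count with all libraries, were these. A change of at least 1.5 times left 5 of 8 for the mean fasting effect, with 12% of all genes called, against 62.5% without that limit. For the change over time (8, and 33.7% of all genes), males alone gave 5 (17.8%) and females alone 1 (9.21%). For the sex difference of the fasting effect (2, and 12.4% of all genes), upper quartile scaling gave 1 (12.6%). No filter gave 5 (6.12% of a larger set of genes). Removal of the 3 libraries rich in ribosomal RNA, chosen after seeing the data, gave 1 (8.95%). Females alone gave 3 for the fasted rhythm (8), with 21.2% of all genes, against 47.1% with both sexes. Bins with at least 10 counts in every library gave 1 for exon usage (3), since that limit removes Pygl bin 30 and Phka2 also lost its call. Leaving out 1 replicate number of 1 sex gave 2 to 8 for the change over time, with 5.29% to 31.6% of all genes. For the sex difference it gave 0 to 3 (1.05% to 11.1%), and for the rhythm difference 1 to 6 (12% to 16.3%). For single times it gave 31 to 42 (of 42). The near-zero mean of Phka2 turned to 0.04 in males alone, 0.06 without CT20, and 0.00 without CT16 and without CT28. Across treatments, replicate numbers marked no shared deviation (20 pairs of same-numbered control and fasted libraries, r from -0.06 to 0.25, 1 above 0.1). Whether same-numbered males and females of 1 group deviate together was not tested. In fasted CT12 livers Pygl parted by number, 612 and 646 CPM in replicates 1, 448 and 395 CPM in replicates 2. In control CT44 livers it did not, with 595 and 514 CPM against 616 and 482 CPM. With the replicate number as a block, 8 genes were called for the mean effect and 2 for the sex difference, 7 for the change over time, 42 for single times, 7, 8 and 6 for the control, fasted and differing rhythms and 3 for exon usage. The cause of these shifts was not tested. Low counts limit Ppp1r3g in control livers.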

Other observations

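Among the 4 fasted livers of 1 time, the library with the highest Ppp1r3g was the one with the lowest Ppp1r3c at 7 of 9 times from CT12 to CT44, and the one with the lowest Ppp1r3b at 5 and the lowest Pygl at 5. It was the library with the highest Gys2 at 5 of 9 times. In control livers, the library with the highest Ppp1r3g had the lowest Ppp1r3c at 3 of 9 times, the lowest Ppp1r3b at 3, the lowest Pygl at 1 and the highest Gys2 at 1. The order of control libraries rests on few Ppp1r3g counts at some times, 1 to 7 per library at CT24 and 4 to 10 at CT40. The treatments are therefore not compared in this respect. At CT24 fasted male 1 and female 1 had 9.15 and 96.1 CPM of Ppp1r3g and 34.9 and 24.9 CPM of Ppp1r3c. Fasted male 2 and female 2 had 0.651 and 2.57 CPM of Ppp1r3g and 163 and 144 CPM of Ppp1r3c. Both genes thus parted by replicate number at that time. These pairs were chosen after their values were seen and were not tested.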
